A study of Mus musculus with 6 samples.

Results

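Peroxisomes are small organelles that shorten very long, branched and unsaturated fatty acids, make the precursors of ether lipids and are assembled by a family of proteins called peroxins. The genes described here are the peroxins, taken as every gene whose symbol is Pex followed by a number and an optional letter, and 27 named genes of peroxisomal lipid enzymes and membrane proteins. On the arrays 12 peroxins and 25 of the named genes had a probe set that the platform annotation assigns to a single gene, which gave 37 of 12393 genes. Of the 27 names, Peci is an older symbol of Eci2, which is itself a member, and Agps was not analysed here. Each gene was read by its brightest probe set. A test was made on the 7436 genes with the highest mean level, and 33 of the 37 members were among them.

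The samples were white fat from mice aged 8 weeks on a mixed C57BL6 and 129 background, all kept at 4 °C for 4 days, so that both groups were exposed to cold and no group was kept warm. Control mice carried Yy1 flox/flox alleles without Cre, and the knockout mice, labelled YY1aKO, carried Yy1 flox/flox together with Adiponectin Cre, a recombinase expressed in adipocytes. Other cells of the tissue keep Yy1, and since no control carried Cre, the transgene and the loss of Yy1 cannot be told apart. There were 3 samples per group, each on 1 single-colour Affymetrix array, and whether these are separate animals is not in the labels, so that p-values here reflect sample-to-sample spread, which may be technical. The titles and the tissue field call the depot EWAT or visceral, while the series title and descriptions call it subcutaneous, and that title also speaks of a brown fat-specific knockout.

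Fatty acids enter the peroxisome through ATP-driven transporters of the membrane and are cut by a beta-oxidation chain whose enzymes are encoded by genes other than those of the mitochondrion. Acids whose methyl branch blocks that chain, such as phytanic acid, must first lose a carbon by alpha-oxidation. Matrix enzymes are made in the cytosol and carried in by receptors that dock on the membrane and are then extracted for reuse. Many of these genes are known targets of the nuclear receptor PPARalpha, and in cold-exposed fat peroxisomes are known to take part in lipid turnover and thermogenesis.

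The distributions of the arrays were alike, with median intensities of 134 to 140.2. Yy1, the targeted gene, read 1785, 1846 and 1596 on control arrays 1, 2 and 3 and 373, 323 and 315 on YY1aKO arrays 1, 2 and 3, 5.18-fold lower without overlap. Control 2 stood apart from the other arrays. Its summed level of 8 measured epididymis genes was 97722, against 251 in control 1, 1074 in control 3 and 256 to 285 in YY1aKO, while its sums of adipocyte, macrophage and endothelial genes were the lowest of all arrays. Its level of 8 adipocyte genes had a median log2 difference of -1.15 from controls 1 and 3, and its level of the 33 tested members one of -0.70. Each member is therefore given with all 6 arrays and without control 2, which leaves 2 control and 3 YY1aKO arrays. Adipoq, which marks adipocytes, read 18586 to 24774 over the 6 arrays. Liver markers summed to 234 to 284 on every array. Of 6 skeletal muscle markers the sum was 1462, 679 and 1393 on control arrays 1, 2 and 3, and it was 2965 to 3701 on the YY1aKO arrays. The sum is carried by Acta1, an actin of skeletal muscle (109.9 to 178 in the control group and 1107 to 1945 in the YY1aKO group; 3.43 ± 0.30, adjusted p = 0.0064), and Myl1 (1.08 ± 0.51, 0.18). Ckm, Myh4 and Tnnt3 read 60.3 to 72.6, 11.6 to 15.3 and 12.9 to 16.7 over all arrays, and Mb read 52.3 to 162 and 39.8 to 50.4 in turn. Of the brown adipocyte genes, Cidea read 199.8, 63.8 and 99.4 on control arrays 1, 2 and 3 and 579.9, 676 and 845 on YY1aKO arrays 1, 2 and 3 (2.68 ± 0.42, adjusted p = 0.014). Ucp1, the uncoupling protein of brown fat, was below the filter and read 24.7, 23.8 and 25.5 on control arrays 1, 2 and 3 and 118, 67.6 and 306 on YY1aKO arrays 1, 2 and 3, higher on every YY1aKO array (2.45 ± 0.53, adjusted p = 0.041 with no filter). Elovl3, also below the filter, read 19.3 to 21.7 in the control group and 32.9 to 321 in the YY1aKO group (2.21 ± 0.80, adjusted p = 0.14 with no filter). Other genes of this list did not rise alike. Cox8b had 0.22 ± 0.66 (adjusted p = 0.84), or -0.46 without control 2 (0.35). Dio2 read 22.2 to 35.5 over all arrays, and Ppargc1a was lower (-2.93 ± 0.36, adjusted p = 0.012 with no filter). What part these markers have in the member results was not tested. In bulk tissue, fewer cells of a type and less RNA per cell cannot be told apart.

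With 6 arrays, 8 of the 33 tested members changed at a limma adjusted p under 0.05, which is 24.2% against 20.7% of all genes tested. Higher in YY1aKO were 4 of them (12.9% of all genes were higher), namely Pex14, Hacl1, Decr2 and Pex7. Lower were the other 4 (7.80% of all genes were lower), namely Eci3, Pxmp2, Phyh and Ehhadh. The median log2 fold change, YY1aKO minus control, was 0.04 over the members and 0.06 over all genes tested, and the median size of the change regardless of sign was 0.32 and 0.30. YY1aKO and control values did not overlap for 14 of the 33 members (47.5% of all genes). Without control 2, 18 members changed (45.1% of all genes did), 7 higher (25.5%) and 11 lower (19.6%), and they included all 8. Groups then did not overlap for 26 members (69.2% of all genes). The median over the members was then -0.19, against 0.03 over all genes. With 6 arrays the share called lies near that of all genes, so the members are described one role at a time. An unadjusted p under 0.05 in limma was found with 6 arrays for 13 of the 33 members and 2772 of the 7436 genes. Counts within a role are to be read beside the same shares of all genes. The plot of levels on each array shows the 8 called members beside others such as Eci2 and Scp2, which did not pass.

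**Figure D1:**
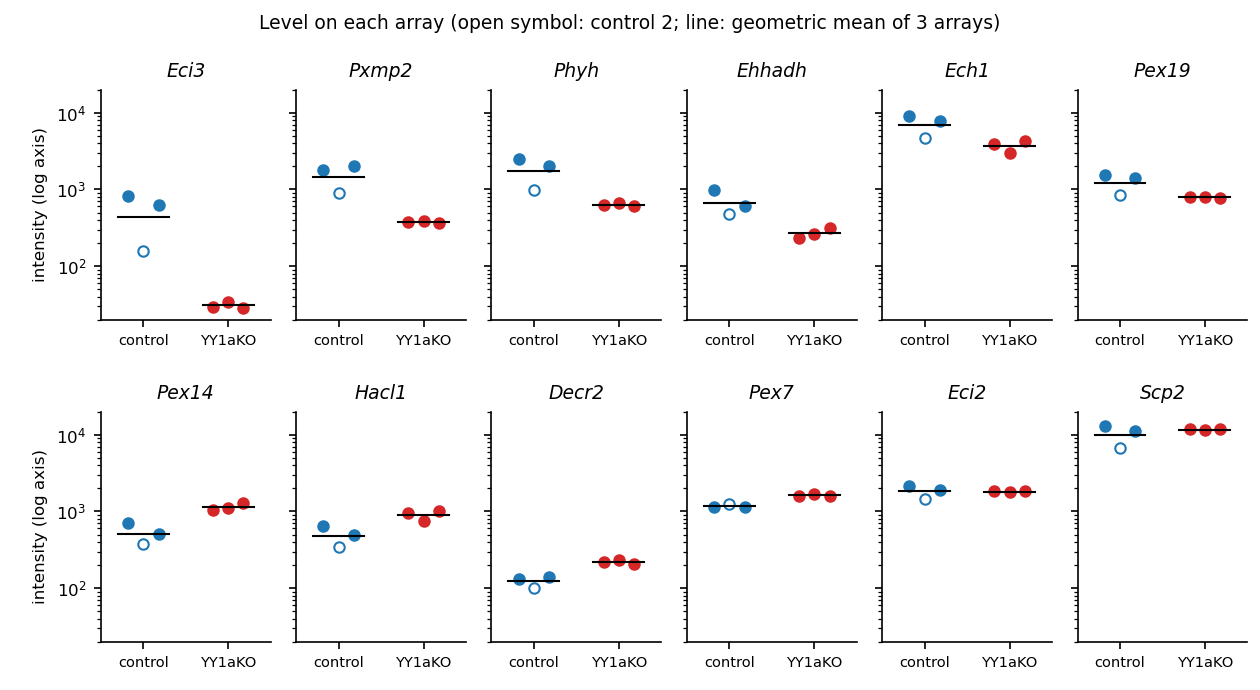
Intensity (log axis) of 12 peroxisome genes on each of the 6 arrays, 3 control (blue) and 3 YY1aKO (red), with control 2 as an open symbol and a line at the geometric mean of each group. The 3 YY1aKO values of Eci3, Pxmp2, Phyh and Ehhadh lie below every control and those of Pex14, Hacl1, Decr2 and Pex7 above, while those of Eci2 and Scp2 lie within the control range.

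The 6-array calls depend on single arrays. Without control 1 the call of Phyh was lost and Gnpat passed instead. Without control 3 only Decr2 and Pxmp2 kept theirs, and without any 1 of the YY1aKO arrays none of the 33 passed in limma. With 1 YY1aKO array left out, 10 to 12 members and 1918 to 2097 of the 7436 genes had an unadjusted p under 0.05. In these fits and in that without control 3, the count of all genes that passed also fell, from 1538 to between 24 and 394. When control 2 and YY1aKO 1, 2 or 3 were left out together, which leaves 2 arrays per group, 10, 13 and 14 members passed in turn. Of all genes 36.9%, 32.8% and 33.0% passed in those fits. The 10 members called without control 2 and YY1aKO 1 passed in all of them: Eci3, Pxmp2, Phyh, Ehhadh, Ech1, Pex19, Decr2, Pex14, Pex7 and Abcd2. How many of all genes passed in all of them was not counted. Leaving out control 2 with another control leaves 1 control array, so calls of such fits are not given.

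**Figure D2:**
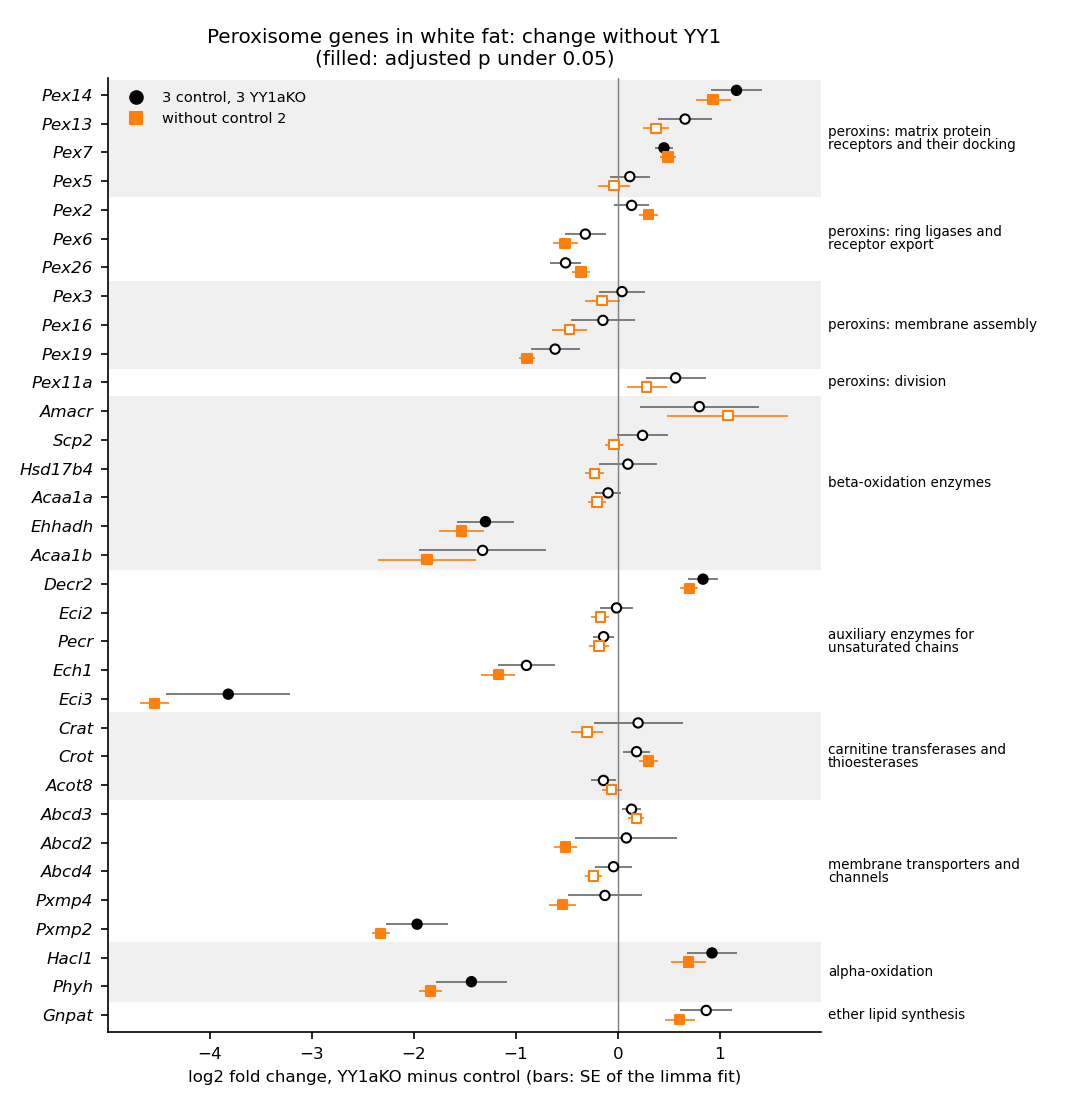
Log2 fold change (YY1aKO minus control, x axis) of the 33 tested members, ordered by role, with 6 arrays (black circles) and without control 2 (orange squares); bars are the SE of the limma fit and filled symbols have an adjusted p under 0.05. The values run from -3.82 for Eci3 to 1.16 for Pex14 with 6 arrays, and most values without control 2 lie to the left of those with it.

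Auxiliary enzymes prepare unsaturated chains for beta-oxidation by moving or reducing double bonds, and they held both the largest fall and one of the rises. Of 5 tested, 1 rose, 1 fell and 3 did not pass with 6 arrays. Eci3, an enoyl-CoA isomerase, read 811, 159 and 631 on control arrays 1, 2 and 3 and 29.6, 34.1 and 28.7 on YY1aKO arrays 1, 2 and 3. All YY1aKO values lay far below the lowest control, control 2, and 22.1% to 25.1% of the probe sets of the same array read lower still. Readings this dim may be mostly background, so the folds of Eci3 may be lower limits. Eci3 was among the genes tested only through its controls, with a mean log2 level of 8.76 in control and 4.94 in YY1aKO. The lowest mean of any tested gene over the 6 arrays was 6.83. In the limma fit with no filter Eci3 had an adjusted p of 0.020, and of 0.00038 without control 2. The log2 fold change was -3.82 ± 0.61 (SE, 3 arrays per group; adjusted p = 0.014), or 14.1-fold lower, and -4.54 ± 0.14 without control 2 (adjusted p = 0.00014). Eci2, its paralog with the same reaction, read 2178, 1469 and 1913 on control arrays 1, 2 and 3 and 1824, 1790.1 and 1823 on YY1aKO arrays 1, 2 and 3. Its YY1aKO values lay inside the control range, with a log2 fold change of -0.01 ± 0.16 (adjusted p = 0.96). Without control 2 they lay below both remaining controls, by -0.17 ± 0.09 (adjusted p = 0.15), and did not pass.

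In the RefSeq annotation of GRCm38.p6 these 2 isomerase genes lie side by side on chromosome 13 and on the same strand, with start sites 30335 bases apart and 0 protein-coding genes between them. The 250 bases before each start are shown because the neighbours differed in response. Eci3 lies at chr13:34963810-34964059 on the minus strand and Eci2 at chr13:34994145-34994394 on the minus strand.
Eci3: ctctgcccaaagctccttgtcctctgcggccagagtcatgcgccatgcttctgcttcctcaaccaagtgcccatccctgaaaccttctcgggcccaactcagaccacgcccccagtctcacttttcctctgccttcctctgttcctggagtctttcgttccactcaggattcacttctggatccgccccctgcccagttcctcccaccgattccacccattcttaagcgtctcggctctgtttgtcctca
Eci2: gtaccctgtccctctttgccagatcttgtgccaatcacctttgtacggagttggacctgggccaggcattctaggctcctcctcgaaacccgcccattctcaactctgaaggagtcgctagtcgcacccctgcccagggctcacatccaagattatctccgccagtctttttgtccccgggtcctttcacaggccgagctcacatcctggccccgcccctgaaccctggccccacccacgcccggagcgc
No letters are in capitals, since neither stretch holds a match to the motifs searched below.

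Subtracting Eci2 from Eci3 on the same array gave log2 differences of -1.43, -3.21 and -1.60 for the controls, in order, and -5.94, -5.71 and -5.99 for the YY1aKO arrays. The groups did not overlap, and the difference between them was -3.81, with 2-sided exact permutation p = 0.1, the smallest that 3 against 3 arrays can give (adjusted 0.2 over the 2 paralog pairs compared). Without control 2 it was -4.37. Since they rest on the same dim Eci3 readings, these differences may be limits too. The values compare arrays and not the abundance of the 2 genes, since probe sets differ in brightness.

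Decr2, the peroxisomal dienoyl-CoA reductase, rose. It read 129.8, 102 and 139 on control arrays 1, 2 and 3 and 219, 232 and 205 on YY1aKO arrays 1, 2 and 3, a log2 fold change of 0.83 ± 0.14 (adjusted p = 0.016) and 0.70 ± 0.09 without control 2 (0.0028). Every YY1aKO array was above every control. Ech1, a dienoyl-CoA isomerase found in peroxisomes and mitochondria, read 9009, 4700.2 and 7740.4 on control arrays 1, 2 and 3 and 3964, 3005 and 4272 on YY1aKO arrays 1, 2 and 3. Here too the groups did not overlap, though control 2 lay close to YY1aKO 3. With 6 arrays Ech1 did not pass (-0.90 ± 0.28, adjusted p = 0.070). Without control 2 it fell by 1.17 on the log2 scale (adjusted p = 0.0040), and that call held with any 1 of the YY1aKO arrays left out as well. Pecr, a peroxisomal enoyl-CoA reductase, read 320.3 to 406 over the 6 arrays and had -0.14 ± 0.11 (adjusted p = 0.38), or -0.19 without control 2 (0.16).

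Of 6 tested beta-oxidation enzymes, 1 fell and 5 did not pass with 6 arrays. Ehhadh, the bifunctional enzyme that acts on straight chains, read 979.7, 476 and 616 on control arrays 1, 2 and 3 and 234, 263 and 315 on YY1aKO arrays 1, 2 and 3. The lowest control, control 2, lay above the highest YY1aKO value, and the log2 fold change was -1.30 ± 0.28 (adjusted p = 0.029), or -1.53 ± 0.22 without control 2 (0.0041). Hsd17b4, the bifunctional enzyme used for branched and very long chains, read 3709, 1727 and 3177 on control arrays 1, 2 and 3 and 2996, 2931 and 2844 on YY1aKO arrays 1, 2 and 3. It had 0.10 ± 0.29 (adjusted p = 0.84), or -0.23 without control 2 (0.093), and passed in neither fit. Scp2, which encodes a sterol carrier protein and a thiolase of branched chains, read 6718 to 12856 and had 0.24 ± 0.25 (adjusted p = 0.52), or -0.04 without control 2 (0.75). Amacr, the racemase of branched acyl-CoAs, read 82.9 in control 3 and 318 to 417 on the other 5 arrays and had 0.80 ± 0.58 (adjusted p = 0.36), or 1.08 without control 2 (0.18).

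The 2 thiolases that end each round of the cycle differed in spread. Acaa1a read 419.6 to 547 on all arrays and had -0.10 ± 0.13 (adjusted p = 0.62), or -0.20 without control 2 (0.096). Each of its probe sets has the suffix _x_at, given to those that may also match other transcripts. With such probe sets left out, Acaa1a had no value. Acaa1b read 3243, 862 and 2211 on control arrays 1, 2 and 3 and 476, 577 and 1429 on YY1aKO arrays 1, 2 and 3, with YY1aKO 3 above control 2, and had -1.33 ± 0.62 (adjusted p = 0.18). Without control 2 it was lower by 1.87 (adjusted p = 0.023), a call kept with YY1aKO 3 left out as well but lost with YY1aKO 1 or 2 left out. YY1aKO 3 was also the array with the highest readings of Ucp1 and Cidea. Its sum of 6 brown or beige adipocyte markers was 2606, against 471 to 1378 on the other arrays, and what part brown-like adipocytes have in its Acaa1b value was not tested. On the same array Acaa1b minus Acaa1a gave 2.68, 1.04 and 2.01 in controls and 0.03, 0.41 and 1.60 in YY1aKO. These overlap, and the group difference of -1.23 had a 2-sided exact permutation p of 0.2 (adjusted 0.2).

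**Figure D3:**
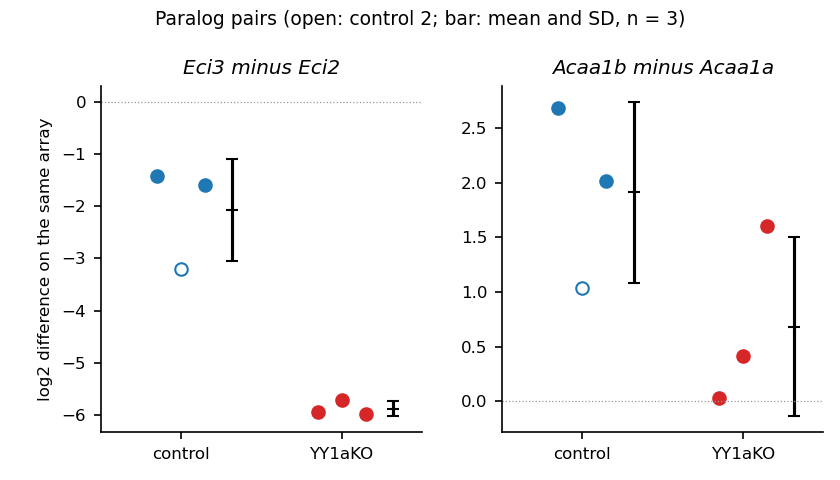
Log2 difference between the 2 genes of a paralog pair on the same array, for Eci3 minus Eci2 and Acaa1b minus Acaa1a, in 3 control (blue, control 2 open) and 3 YY1aKO arrays (red), with the mean and SD of each group. The Eci3 values of YY1aKO lie between -5.99 and -5.71, below all controls, while the Acaa1b values of the groups overlap.

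The alpha-oxidation enzymes moved in opposite directions. Phyh, the phytanoyl-CoA hydroxylase that starts the pathway, read 2514, 982 and 2047 on control arrays 1, 2 and 3 and 625, 663 and 617 on YY1aKO arrays 1, 2 and 3. The YY1aKO arrays were close to each other and all below control 2, the lowest control. Its log2 fold change was -1.43 ± 0.35 (adjusted p = 0.038), and -1.84 ± 0.11 without control 2 (0.00057). Hacl1, the lyase that follows, read 636, 345 and 494 on control arrays 1, 2 and 3 and 955, 757 and 1024 on YY1aKO arrays 1, 2 and 3, and every YY1aKO array was above every control. It rose by 0.92 ± 0.25 (adjusted p = 0.049), close to the threshold, and by 0.69 ± 0.17 without control 2 (0.021). Control 2 was the lowest control for both, so leaving it out made the fall of Phyh larger and the rise of Hacl1 smaller. The Hacl1 call was lost in 7 of the 11 other processing settings, with an adjusted p of 0.050 to 0.071 where the block on replicate numbers and the stricter threshold are set aside.

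The 250 bases before the starts of this opposed pair, in GRCm38.p6, lie at chr2:4918746-4918995 on the plus strand for Phyh and at chr14:31640966-31641215 on the minus strand for Hacl1. They are shown for comparison and hold no match to the motifs searched.
Phyh: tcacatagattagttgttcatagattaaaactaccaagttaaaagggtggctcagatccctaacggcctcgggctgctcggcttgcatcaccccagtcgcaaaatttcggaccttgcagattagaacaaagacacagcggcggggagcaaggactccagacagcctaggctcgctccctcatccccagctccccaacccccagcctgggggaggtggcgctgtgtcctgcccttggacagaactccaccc
Hacl1: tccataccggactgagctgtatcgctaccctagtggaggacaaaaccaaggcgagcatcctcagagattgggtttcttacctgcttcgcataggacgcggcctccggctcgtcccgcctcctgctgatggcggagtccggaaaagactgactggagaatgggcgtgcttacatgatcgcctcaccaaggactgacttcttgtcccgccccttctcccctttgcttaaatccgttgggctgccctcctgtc
In ether lipid synthesis, Gnpat, the acyltransferase of the opening step, read 1313, 656 and 963 on control arrays 1, 2 and 3 and 1674, 1844 and 1627 on YY1aKO arrays 1, 2 and 3. All YY1aKO values were above the controls, and the log2 fold change was 0.87 ± 0.25 (adjusted p = 0.062). Without control 2 it rose by 0.61 ± 0.15 (adjusted p = 0.020), a call kept with YY1aKO 3 left out as well but lost with YY1aKO 1 or 2 left out.

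Among 5 membrane transporters and channels, 1 fell with 6 arrays. Pxmp2, which forms a channel for small solutes, read 1773, 898 and 2006 on control arrays 1, 2 and 3 and 381, 382 and 366 on YY1aKO arrays 1, 2 and 3, the tightest YY1aKO group of the 4 members that fell with 6 arrays. With -1.97 ± 0.31 (adjusted p = 0.013), or 3.91-fold lower, it was the second largest fall, and without control 2 it had -2.32 ± 0.09 (0.00025). Pxmp4, another protein of the peroxisomal membrane, read 1244, 451 and 921 on control arrays 1, 2 and 3 and 714, 755 and 737 on YY1aKO arrays 1, 2 and 3. It passed only without control 2 (-0.54 ± 0.14, adjusted p = 0.023), and that call was lost with any 1 of the YY1aKO arrays left out as well. Abcd2, a fatty acyl-CoA transporter of the peroxisomal membrane, read 2998, 859 and 2934 on control arrays 1, 2 and 3 and 2267, 2156 and 1838 on YY1aKO arrays 1, 2 and 3. Control 2 was the lowest array, and the 6-array value was 0.08 ± 0.50 (adjusted p = 0.93). Without control 2 Abcd2 was lower by 0.51 (adjusted p = 0.014), a call that held with any 1 of the YY1aKO arrays left out as well. Abcd3, the major transporter of the peroxisomal membrane, read 2330.4 to 2777 and had 0.13 ± 0.09 (adjusted p = 0.34), or 0.18 without control 2 (0.11). Abcd4, of the same family, read 119 to 186 and had -0.04 ± 0.18 (adjusted p = 0.89), or -0.24 without control 2 (0.057).

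None of the 3 tested carnitine transferases and thioesterases passed with 6 arrays in limma, and 0 had an unadjusted p under 0.05. Crot, which hands shortened chains to carnitine, read 853, 1009 and 739.7 on control arrays 1, 2 and 3 and 1001, 986 and 945 on YY1aKO arrays 1, 2 and 3. It was 0.30 ± 0.09 higher without control 2 (adjusted p = 0.043) and 0.18 ± 0.13 with it (0.37). Crat, the carnitine acetyltransferase, read 331 to 1059 and had 0.20 ± 0.44 (adjusted p = 0.78), or -0.30 without control 2 (0.15). Acot8, a thioesterase that releases fatty acids from CoA, read 238 to 318 and had -0.14 ± 0.12 (adjusted p = 0.44), or -0.06 without control 2 (0.64).

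Peroxins of matrix protein import had 2 of 4 tested members higher in limma (12.9% of all genes were) and none lower. Of the 4, 3 had an unadjusted p under 0.05. Pex14, the docking protein of the import pore, read 709, 373 and 509 on control arrays 1, 2 and 3 and 1031, 1122 and 1306 on YY1aKO arrays 1, 2 and 3. No YY1aKO array was below any control, and the rise was 1.16 ± 0.25 (adjusted p = 0.027), or 2.24-fold, and 0.93 ± 0.17 without control 2 (0.0084). Pex7, the receptor for proteins with an amino-terminal targeting signal, among them Phyh, read 1149, 1250.4 and 1151 on control arrays 1, 2 and 3 and 1576, 1666 and 1613 on YY1aKO arrays 1, 2 and 3. Its rise was small but even, 0.45 ± 0.09 (adjusted p = 0.022) and 0.49 ± 0.07 without control 2 (0.0047), and control 2 was the highest control. Pex13, the partner of Pex14 in docking, read 3111, 1526 and 2436 on control arrays 1, 2 and 3 and 3771, 3364 and 3587 on YY1aKO arrays 1, 2 and 3. It had 0.66 ± 0.26 (adjusted p = 0.13) and 0.37 ± 0.13 without control 2 (0.053), and passed in neither fit. A dimmer probe set of Pex13 read 76.2 to 182 among controls against 299.6 to 344 among YY1aKO arrays, and rose by 1.44 (adjusted p = 0.039 over all probe sets). Pex5, the receptor for the common carboxy-terminal signal, read 461 to 744 and had 0.12 ± 0.19 (adjusted p = 0.70), or -0.04 without control 2 (0.85).

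After import the receptor is tagged with ubiquitin and pulled out of the membrane. None of the 3 tested genes of this step passed with 6 arrays in limma, 1 having an unadjusted p under 0.05. All 3 passed without control 2, as did 45.1% of all genes. Pex2, of the ubiquitin ligase complex, read 889, 1227 and 844 on control arrays 1, 2 and 3 and 1139, 976 and 1097 on YY1aKO arrays 1, 2 and 3, with control 2 the highest array. It had 0.14 ± 0.17 (adjusted p = 0.60) with 6 arrays and 0.30 ± 0.10 without control 2 (0.046). Pex6, an ATPase of the extraction complex, read 1242, 775 and 1103 on control arrays 1, 2 and 3 and 809, 732 and 925 on YY1aKO arrays 1, 2 and 3, with -0.32 ± 0.20 (0.30) and -0.52 ± 0.12 (0.019) in turn. Of its 5 probe sets, 3 were lower and 2 higher in YY1aKO, and with their mean the value without control 2 was -0.20 (adjusted p = 0.16) and the call was lost. Pex26, which anchors that complex, read 181, 259 and 197 on control arrays 1, 2 and 3 and 140.0, 146 and 156 on YY1aKO arrays 1, 2 and 3. Its groups did not overlap with control 2 or without it, and it had -0.51 ± 0.15 (adjusted p = 0.066) and -0.36 ± 0.09 (0.021).

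In the step that inserts membrane proteins, none of 3 passed with 6 arrays in limma, with 1 at an unadjusted p under 0.05, and Pex19 passed without control 2. Pex19, the chaperone of peroxisomal membrane proteins, read 1538, 834 and 1412 on control arrays 1, 2 and 3 and 804, 798 and 785 on YY1aKO arrays 1, 2 and 3. The YY1aKO values spanned only 785 to 804, just below control 2. It had -0.62 ± 0.24 (adjusted p = 0.12) and, without control 2, -0.89 ± 0.08 (adjusted p = 0.0013), a fall that its dimmer probe set also showed (-0.97, adjusted p = 0.0026 over all probe sets). Its membrane receptor Pex3 read 956 to 1747 and had 0.04 ± 0.23 (adjusted p = 0.92), or -0.15 without control 2 (0.49). Pex16, which works with both, read 625 to 1376 and had -0.15 ± 0.31 (0.77), or -0.47 without control 2 (0.066). Pex11a, which drives elongation before division, read 1417, 709 and 1155 on control arrays 1, 2 and 3 and 1236, 1892 and 1611 on YY1aKO arrays 1, 2 and 3, with overlapping groups and 0.57 ± 0.29 (adjusted p = 0.22), or 0.28 without control 2 (0.27).

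The 4 members below the intensity filter entered only a fit without that filter, where 10.8% of all genes passed and none of these 4 did in limma, at an adjusted or an unadjusted p under 0.05. Acox2 and Acox3 encode oxidases of branched chains. Acox2 read 24.0 to 44.8 (-0.09 ± 0.24, adjusted p = 0.84; -0.18 and 0.67 without control 2). Acox3 read 211 in control 2 and 56.7 to 66.6 on the other arrays (-0.57 ± 0.52, adjusted p = 0.53; 0.05 and 0.76 without control 2). The thioesterase Acot4 read 45.2 to 148 (0.31 ± 0.42, 0.67; -0.10 and 0.83 without control 2). Pex5l, a mainly neuronal relative of Pex5, read 21.7 to 28.5 (0.09 ± 0.12, 0.70; -0.02 and 0.87 without control 2).

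**Figure D4:**
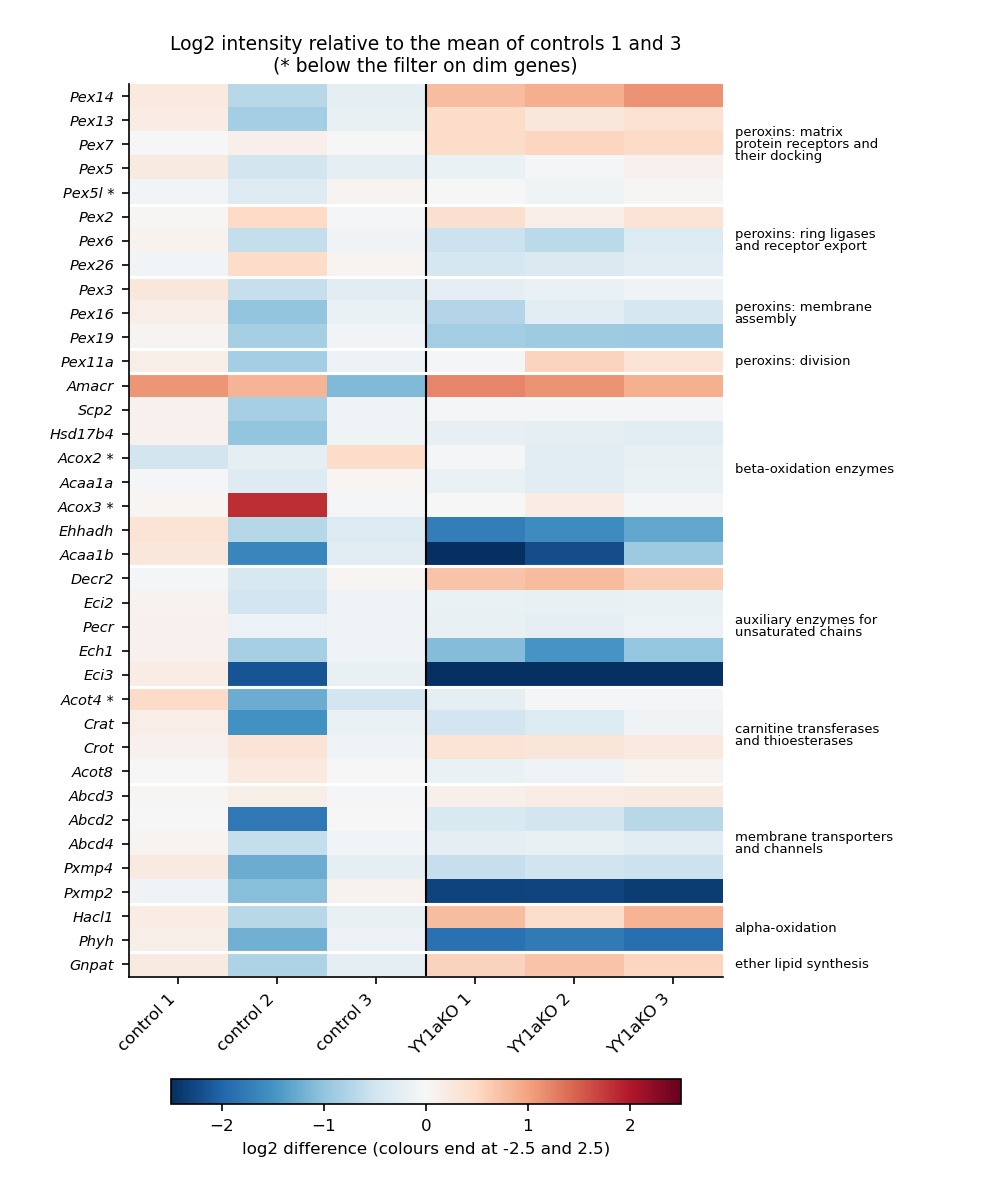
Log2 intensity of all 37 members (rows, by role) on the 6 arrays (columns), as the difference from the mean of controls 1 and 3; red is higher and blue lower, and an asterisk marks the 4 members below the filter. Control 2 is blue in most rows, with a median of -0.70 over the 33 tested members, while the 3 YY1aKO columns differ most from each other for Acaa1b.

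Control 2 was the lowest control for 26 of the 33 tested members (78.8%, against 48.6% of all genes tested) and the highest for 6. It was lowest for all 8 tested adipocyte genes too, and its median difference from the other controls was -0.70 for the members and -0.05 over all genes. Leaving it out therefore lowered the log2 fold change of most members, and turned the sign of 6 of them from positive to negative, namely Abcd2, Crat, Hsd17b4, Pex3, Pex5 and Scp2. Only Abcd2 of these passed without control 2. The signs are those of the brightest probe set. Without control 2 the dimmer probe sets of Scp2 (0.24, 0.05 and 0.11) and Crat (0.21) stayed positive. That of Pex3 was negative with 6 arrays already (-0.14). Those of Hsd17b4 and Pex5 turned negative as well (-0.11 and -0.15). How much of the low member levels of control 2 comes with its epididymal signal was not tested.

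Since YY1 binds DNA, the promoters were searched for a form of its motif, AANATGGC on either strand. The RefSeq windows of GRCm38.p6 ran from 250 bases before to 50 after each start. The motif was found for 2 of 28 members with a window, Ech1 and Pex14 (7.14%), and for 6.96% of all 27025 genes. These promoters thus hold it about as often as any. Only full matches were counted, so the shorter ATGGC in the Hacl1 stretch and GCCAT in the Eci3 stretch above were not. A direct repeat of the kind bound by PPAR receptors was also searched, in which AGGNCA follows itself after 1 base on either strand. It was found for 0 of the 28 and for 0.451% of all genes. A repeat this rare would seldom appear among 28 genes, so its absence decides nothing about control by PPAR receptors. Of the 37 members, 28 had a window, and Pxmp2 had none. In Pex14, which rose, the match starts at base 34 after the start, at chr4:149099794-149099823 on the minus strand, shown with its motif in capitals.
Pex14: gtcaggcctgaggAAGATGGCgtcgtcgga
In Ech1, which fell without control 2, there are 2 matches, beginning 120 and 51 bases before the start, at chr7:28825088-28825337 on the plus strand. They are in capitals in the 250 bases before the start.
Ech1: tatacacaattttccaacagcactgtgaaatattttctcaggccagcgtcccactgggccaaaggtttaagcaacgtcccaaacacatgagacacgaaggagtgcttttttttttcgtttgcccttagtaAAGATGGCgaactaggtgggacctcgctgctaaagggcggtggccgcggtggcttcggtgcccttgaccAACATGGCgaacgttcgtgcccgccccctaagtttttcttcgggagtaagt
A match of letters does not show that YY1 is bound there.

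Among 20 other tested peroxisomal genes of a list drawn up for context, 4 rose, 1 fell and 15 did not pass with 6 arrays, with a median of 0.25, while 20.7% of all genes passed. Dhrs4, a peroxisomal dehydrogenase of retinoids, ranged over 827 to 1222 in the control group and 1925 to 2618 in the YY1aKO group (1.03 ± 0.20, adjusted p = 0.022). Dhrs7b, a later enzyme of ether lipid synthesis, read 784 to 1501 and 1900.5 to 2351 (0.93 ± 0.25, 0.048). The CoA hydrolase Nudt19 rose as well (0.65 ± 0.14, 0.029). So did Mpv17 (0.57 ± 0.15, 0.049), listed here though its protein is now placed in the mitochondrial inner membrane. The thioesterase Acot6 fell by 0.41 (0.043). Cat, the catalase that marks peroxisomes, read 3299 to 7661 and had 0.24 ± 0.32 (adjusted p = 0.63), or -0.13 without control 2 (0.30). Leaving out control 2 gave 5 higher and 1 lower of 20, or 30% in all against 45.1% of all genes.

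Of 3 tested genes of the division machinery that peroxisomes share with mitochondria, Mff, the membrane adaptor for the fission GTPase, rose from a range of 2411 to 2769 in the control group to one of 3779 to 4178 in the YY1aKO group (0.63 ± 0.10, adjusted p = 0.014). The GTPase Dnm1l and the adaptor Fis1 had 0.00 ± 0.18 and 0.21 ± 0.13 and did not pass. Gdap1, a fission factor below the filter, ranged over 16.5 to 18.6 in the control group and 75.1 to 92.6 in the YY1aKO group (2.27 ± 0.11, adjusted p = 0.0027 with no filter), and its control readings are so dim that the difference may be a lower limit. Among 9 tested receptors and coactivators tied to these genes, 1 rose and 1 fell. Med1, a mediator subunit that nuclear receptors recruit, had 0.53 ± 0.13 (adjusted p = 0.036), and the corepressor Nrip1 had -1.09 ± 0.12 (0.0076). Ppargc1a, a coactivator below the filter, read 163, 134 and 242 on control arrays 1, 2 and 3 and 22.3, 15.3 and 35.0 on YY1aKO arrays 1, 2 and 3 (-2.93 ± 0.36, adjusted p = 0.012 with no filter). Ppara, the receptor best known for this gene set, read 214, 129 and 186 on control arrays 1, 2 and 3 and 125, 99.7 and 156 on YY1aKO arrays 1, 2 and 3. It did not pass with 6 arrays (-0.47 ± 0.25, adjusted p = 0.22), and was lower by 0.67 without control 2 (0.033). Leaving out control 2 gave 1 higher and 4 lower of the 9 receptors or coactivators, where 25.5% and 19.6% of all genes were.

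The mitochondrial fatty acid oxidation list, given for comparison, had 1 of 20 higher, the thiolase Acaa2 (0.68 ± 0.13, adjusted p = 0.020), and 1 lower, the dehydrogenase Acad9 (-0.47 ± 0.12, 0.041), with a median of 0.17. Without control 2 the counts were 1 and 5 of 20, against 25.5% and 19.6% of all genes, and the median was -0.12. The peroxisomal members had 24.2% called and this list 10.0% with 6 arrays, and the difference between these shares was not tested. Eci1, the mitochondrial paralog of Eci2 and Eci3, read 1978 to 4187 and had 0.18 ± 0.29 (adjusted p = 0.70).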

How the data were processed

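Gene expression was measured in 6 white fat samples on Affymetrix arrays, 3 per group. The deposited table holds 22690 probe sets as intensity values on a linear scale, and per the submitters' notes on processing, RMA was the authors' method. RMA corrects background and makes the distributions of arrays alike. Its version was not given in the sources used here. From these values, log2 intensities were taken, 64 array control probe sets were left out, and probe sets with 1 gene symbol in the platform annotation (20380, against 691 with several and 1555 with none) were reduced to the brightest per gene, which gave 12393 genes. The 60% with the highest mean were tested in limma 3.58.1 (R 4.3.3), YY1aKO minus control, 2-sided, with moderated SE and Benjamini-Hochberg adjustment over all 7436 and a threshold of 0.05. Fits were first tested on simulated data in which no array stood apart, so that test does not show how they handle an array like control 2. The number of arrays, 3 per group, limits the precision.

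Every member is named. Values on each array are given for those that passed with 6 arrays or without control 2, and for 4 that passed in neither (Eci2, Hsd17b4, Pex11a and Pex13). Genes of the other lists are named where they passed with 6 arrays, and Cat, Dnm1l, Fis1, Gdap1, Ppara, Ppargc1a and Eci1 were added after their values were seen. The members, gene lists and tests were chosen with earlier results of these data known. Correlations between members over the arrays are not given, because the arrays fall into 2 groups. Alternatives covered the probe set rule, the filter, the scaling, the variance model, the threshold, a block on replicate numbers and leaving out each array.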

Additional observations from a re-analysis of the deposited data

How the results depend on the processing

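Of the 8 members called with 6 arrays, 6 to 8 were called under another probe set rule, filter, scaling, floor or prior, where 10.8% to 23.1% of all genes passed. With array weights, whose estimation stopped before it converged, 13 members (5 higher, 8 lower) and 2628 genes passed. At an adjusted p under 0.01, 0 members (0 higher, 0 lower) and 212 genes passed in limma, with 13 members and 2772 genes at an unadjusted p under 0.05. With 1 array left out, 24 to 3353 genes and 0 to 18 members passed, 0 to 7 higher and 0 to 11 lower. Signs turned for 10 members, none of them called with 6 arrays. With array weights Abcd2 had -0.39, Crat -0.20, Hsd17b4 -0.16 and Pex3 -0.10. Pex3 had -0.048 with the mean of the probe sets, Abcd4 0.00087 with quantile normalization and Eci2 0.026 with equal medians. Leaving out 1 array gave ranges that cross 0, from the value without control 2 to that without control 1, of -0.51 to 0.39 for Abcd2, -0.24 to 0.086 for Abcd4, -0.30 to 0.54 for Crat, -0.17 to 0.11 for Eci2, -0.23 to 0.32 for Hsd17b4, -0.47 to 0.10 for Pex16, -0.15 to 0.28 for Pex3, -0.038 to 0.31 for Pex5, -0.54 to 0.19 for Pxmp4 and -0.037 to 0.43 for Scp2. The cause was not tested. Without control 2, alternatives gave 16 to 19 of the members against 18, except for 9 at an adjusted p under 0.01, and 10 to 15 with 1 further array left out. The labels give both groups replicate numbers 1 to 3. Deviations from the group mean of samples with the same number correlated at -0.14, -0.12 and -0.12. These values give no sign of pairing by number, but groups of 3 that include control 2 cannot exclude it. With the replicate block, 0 members (0 higher, 0 lower) and 54 genes passed in limma, 13 members and 2232 genes having an unadjusted p under 0.05.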

Other observations

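Some peroxisomal genes outside the member list, all below the intensity filter and chosen after their values were seen, read higher in part of the controls. Slc27a2, a transporter and activator of very long chain fatty acids, read 38.2 in control 1, 324 in control 2 and 431 in control 3, against 22.5 to 33.8 in YY1aKO. Pipox, which oxidizes pipecolic acid, read 37.8, 96.1 and 336 in the controls and 25.4 to 43.1 in YY1aKO. Dao, the oxidase of D-amino acids, read 45.3, 124 and 263 in the controls and 19.3 to 37.0 in YY1aKO. In the limma fit with no filter none of these 3 passed, with adjusted p-values of 0.12, 0.21 and 0.090. Control 3 was also the array with the next highest epididymis sum after control 2 (1074), and what part this has in those readings was not tested. Of the same list and also below the filter, Mpv17l, a relative of Mpv17, read 68.2 to 80.1 in the controls and 114 to 133 in YY1aKO, and was the 1 gene of them that passed there (0.80, adjusted p = 0.015).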
